A study of Homo sapiens with 12 samples.

Results

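Across the single-cell transcriptomes of eHAP1 SCC4 knockout (KO) and wild-type (WT) cells, 42 of the 9773 genes that passed the expression filter were strongly lowered in the KO cells, 0.43% of the genes examined. The genes were selected on the measured contrast itself. A gene had to average at least 1 unique molecular identifier (UMI, the tag that counts each captured RNA molecule once) per cell in either genotype, to hold at least 1 UMI in each genotype, and to have a log2 ratio of KO over WT below -2, a 4-fold lower level, in batch 1 and again in batch 2. The ratio was taken between UMI sums per batch, with 0.5 UMI added and each sum divided by the batch total. Because this ratio chose the genes, their fold changes are given as a description with no test.

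eHAP1 is a haploid human cell line. WT cells and cells of an SCC4 KO line were sorted singly and profiled by LAST-seq. In this method the RNA of each cell receives a barcode, and lysates are pooled before the RNA is amplified linearly. The eHAP1 wells were pooled in sets of 80. KO clones were expanded from single cells after Cas9 ribonucleoprotein carrying a guide against SCC4 was delivered to eHAP1 cells, and both genotypes were sorted as live haploid cells in G1. There was 1 sample per genotype, made of 2 batches, with 148 WT cells (73 and 75) and 153 KO cells (77 and 76). Cells of one sample are not replicates of a genotype, and a difference between the lines cannot be told apart from a difference between the cell populations or clones used. HEK293T, a human embryonic kidney line that the same study examined with LAST-seq and with the CEL-seq2 and SMART-seq methods, served as an outside reference for the level of each gene.

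SCC4, whose gene symbol is MAU2, is the partner of NIPBL in the complex that loads cohesin onto DNA. Cohesin extrudes chromatin loops until it meets CTCF or is released, which produces topologically associating domains and brings some enhancers and promoters together. Loss of the loader lowers cohesin on chromatin and weakens these domains, and the expression of only some genes depends on them.

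The edited site is shown because it defines the KO. The guide matched the plus strand of MAU2 exon 5, within the coding sequence, at chr19:19338850-19338872 (GRCh38, the 20 guide bases and the 3 that follow them), with the protospacer-adjacent motif in capitals.
SCC4 guide: gcacacgcttgagaaggaccTGG

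The MAU2 transcript checked the labels. Levels are given in CPM, the UMIs of a gene scaled to 1000000 UMIs of its batch, cell or library. MAU2 stood at 44.2 and 41.2 CPM in WT batches 1 and 2 and 9.17 and 14.5 in the KO batches, so every KO value was below every WT value. The log2 ratios were -2.26 and -1.51, and MAU2 therefore fell outside the selected genes through batch 2. An edit of the coding sequence need not remove the transcript, so the level of the RNA does not measure loss of the protein. NIPBL, the other loader subunit, stood at 30.4 and 39.8 CPM in WT and 36.7 and 29.6 in KO, and its groups overlapped.

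Depth and the state of the deposited values bear on everything that follows. The batches held between 6434247 and 12301326 UMIs, WT cells between 18022 and 926415 and KO cells between 44979 and 320432. All 78 cell barcodes seen in WT were also seen in KO, so cells were told apart by table, batch and barcode together. The values also showed a gap: in 1786 to 3211 genes per batch, at least 10 cells held 1 UMI and at least 10 held 3 or more while no cell held 2, whereas the corresponding gap at 3 occurred in 0 to 3 genes and the gap at 1 in 0. ComBat-seq, a batch correction named in the study's methods, leaves counts of 0 and 1 as they are and maps larger counts to new ones. Of the 42 genes, 24 had the gap in at least 1 batch, against 6472 of the 9773 genes that passed the filter. The gap is thus not a trait of the 42 genes. For USP2 in WT batch 2, 37 cells held 0, 23 held 1 and the next value present was 5. The 2 batches of a genotype were thus treated as adjusted towards each other and not as independent repeats, while the share of cells with any UMI does not change under that mapping. The labels name no tissue for eHAP1. Of the blood markers chosen to check it, CD33, CD34, TAL1 and CORO1A averaged under 1 UMI per cell in both genotypes and PTPRC, SPI1, GATA1 and MPO had no row. Of a longer list of 18 blood lineage genes that had a row, 5 passed the filter (MYB, GATA2, HBA1, HBA2 and LYN), and 6 of 15 kidney lineage factors passed.

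The log2 ratios of the 42 genes ran from -7.46 to -2.02 in batch 1 (median -3.12) and from -8.38 to -2.02 in batch 2 (median -2.82). Over all 9773 genes the medians were 0.01 and 0.06. With the batches summed, the median gene of the 42 was 8.17-fold lower in KO, and the KO level was under 10% of WT for 18 genes, from 10% to 20% for 21 and above 20% for 3. The ratios of the batches differed by more than 1 on the log2 scale for 16 genes, a count given without its share over all genes. In the opposite direction, 35 genes (0.358%) were above 2 in both batches.

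**Figure D1:**
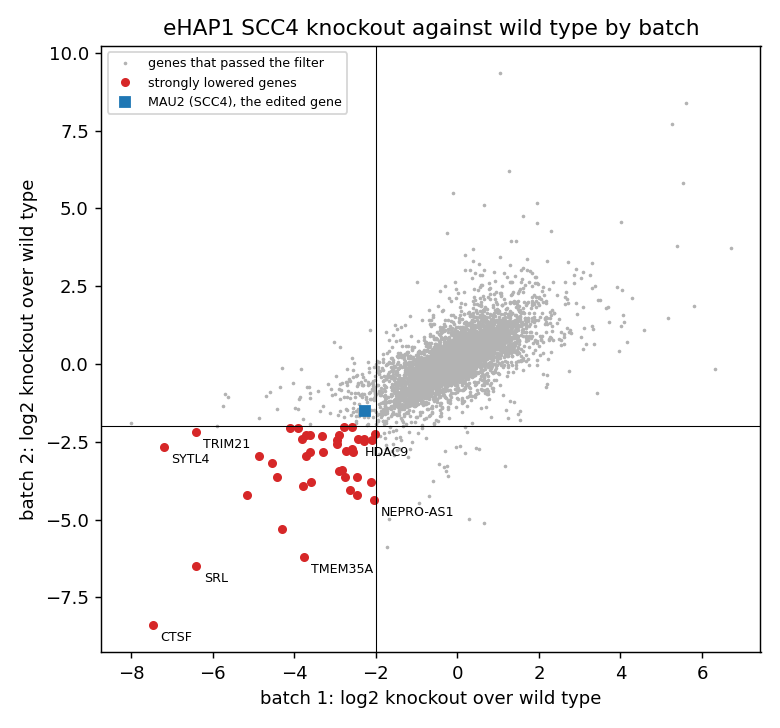
Log2 ratio of KO over WT in batch 1 (x axis) and batch 2 (y axis) for 9773 genes. Red points are the 42 genes below -2 in both batches (black lines), the blue square is MAU2 at -2.26 and -1.51, and CTSF is the lowest of the 42 in each batch while SYTL4 and TRIM21 are far lower in batch 1 than in batch 2.

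At the edge of the selection, the genes just inside were LINC00623, whose higher ratio was -2.02 in batch 2, SPRY1 with -2.02 in batch 1 and HOOK2 with -2.02 in batch 2. Just outside were MGAT4A (-5.88 and -1.98), TTC39C (-2.22 and -1.95) and CEP68 (-3.62 and -1.94). The line at -2 therefore divides genes whose values in one batch differ by less than 0.1.

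CTSF, which encodes the lysosomal cysteine protease cathepsin F, had the lowest ratio. Its 302 and 526 UMIs in the WT batches compared with 1 and 1 in the KO batches, a KO level of 0.262% of WT (95% exact interval 0.0317 to 0.951, which covers counting error only and takes the adjusted values as counts). SRL, encoding sarcalumenin, a calcium-binding protein of the muscle sarcoplasmic reticulum, followed with 144 and 142 UMIs in WT and 1 and 1 in KO. These were the only 2 of the 42 genes with at most 3 UMIs over all KO cells. TMEM35A, a chaperone in the assembly of nicotinic acetylcholine receptors, had 210 and 349 UMIs in WT and 13 and 4 in KO. ST8SIA1, the sialyltransferase that makes the ganglioside GD3, had 102 and 106 in WT and 2 and 5 in KO. In all 4 genes both KO values were below both WT values. The remaining genes of the 6 lowest ratios, ENSG00000269504 and CCDC136, were abundant in WT and are described with the abundant genes.

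The 10 genes with the highest WT means, 6.14 to 46.1 UMIs per cell, were still detected in 51.6% to 97.4% of KO cells. HDAC9, a class IIa histone deacetylase that represses transcription with MEF2 factors, was the most abundant on this scale of molecules, with 349 and 346 CPM in WT and 64.2 and 64.6 in KO. ENSG00000269504, a long noncoding RNA at chr19:22017898-22052370, had 272 and 253 in WT and 13.7 and 6.42 in KO. HIP1, which links clathrin-coated membrane to actin, had 298 and 198 in WT and 24.4 and 28.1 in KO. For all 3 the genotypes did not overlap. In HIP1, however, 1 WT cell of batch 1 held 786 of that batch's 2196 UMIs. Without that cell the batch 1 ratio moved from -3.61 to -3.00, and HIP1 stayed below -2.

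In the other abundant genes the WT batches were close to each other and the KO batches less so. TSHZ1, a zinc finger homeobox factor of development, stood at 201 and 199 CPM in WT and 20.5 and 27.9 in KO. CCDC136, a coiled-coil protein with little known of its role in these cells, stood at 158 and 144 in WT and 11.5 and 9.33 in KO. NEPRO-AS1, a noncoding RNA antisense to NEPRO, had 179 and 175 in WT but 43.4 and 8.48 in KO, so the KO batches lay farther apart by ratio than in any other of the 10. ATP6V1E2, a subunit of the vacuolar proton pump, had 88.6 and 84.6 in WT and 11.8 and 17.4 in KO.

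The remaining 3 of the 10 were CCDC80, HOOK2 and ENSG00000255836. CCDC80 encodes a secreted protein of the extracellular matrix and stood at 59.6 and 61.3 CPM in WT and 4.82 and 12.5 in KO. HOOK2, an adaptor between cargo and the dynein motor on microtubules, had 323 and 601 UMIs in WT and 41 and 140 in KO. ENSG00000255836, a processed pseudogene at chr12:7438780-7439990, stood at 49.0 and 44.5 CPM in WT and 2.80 and 10.5 in KO. In each the KO level was higher in batch 2 than in batch 1, and the genotypes did not overlap.

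Several members act in cell signalling, a grouping made after their values were seen. SFRP1, a secreted antagonist of WNT ligands, had 258 and 509 UMIs in WT and 22 and 97 in KO, with log2 ratios of -3.33 and -2.31. SPRY1, an inhibitor of receptor tyrosine kinase signalling, had 53 and 167 in WT and 11 and 33 in KO. ACVR1C, the type I receptor for nodal and some activins, had 21 and 164 in WT and 2 and 14 in KO. SFRP1, SPRY1 and ACVR1C are inhibitors and receptors of different pathways. SCUBE3 and CD109, described next, act in the TGF-beta and BMP family of pathways, as ACVR1C does. Other genes of this family went the opposite way. In a list of 27 of its genes that passed, BMP7 and INHBB had log2 ratios above 2 in both batches. The median of that list was 0.09. In ACVR1C the lower WT batch, at 2.85 CPM, came close to the higher KO batch, at 1.20.

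SCUBE3, a secreted glycoprotein that acts in BMP and TGF-beta signalling, and CD109, a membrane-anchored co-receptor that dampens TGF-beta signalling, had log2 ratios of -3.26 and -2.69 with both batches summed. LMTK2, a membrane-anchored kinase of endosomal traffic, had 217 and 267 UMIs in WT and 6 and 32 in KO. CAMK2G, a subunit of the calcium and calmodulin-dependent kinase II, had 304 and 550 in WT and 20 and 108 in KO. The KO level of both kinases was higher in batch 2. ADAMTS12, a secreted metalloprotease that remodels matrix, had 34 and 126 UMIs in WT and 5 and 6 in KO, and with 1.08 UMIs per WT cell it was the member closest to the expression filter.

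Besides TSHZ1, the genes of DNA binding were the zinc finger genes ZNF850 and ZNF385D and the THAP-domain gene THAP6. ZNF850 stood at 22.0 and 18.5 CPM in WT and 2.80 and 3.08 in KO, with close agreement within each genotype. ZNF385D had 81 and 202 UMIs in WT and 10 and 15 in KO. THAP6 differed more between WT batches, at 4.88 and 14.4 CPM, than between the lower WT batch and the higher KO batch, at 2.65.

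Membrane traffic and the cytoskeleton were represented, beyond HIP1 and HOOK2, by SYTL4, RAB30, GRAMD1B and AFAP1L1. SYTL4, an effector of RAB27 in secretory granule release, had 249 and 285 UMIs in WT but 1 and 42 in KO, giving log2 ratios of -7.18 and -2.67. RAB30, a small GTPase of the Golgi, had 87 and 453 in WT and 11 and 61 in KO, and GRAMD1B, a sterol carrier between plasma membrane and endoplasmic reticulum, had a summed log2 ratio of -2.42. AFAP1L1, an actin-associated adaptor, had only 7 UMIs in WT batch 1 and 228 in WT batch 2, against 1 and 15 in KO. Scaled to the batch totals the genotypes of AFAP1L1 overlapped, as WT batch 1 was below the 1.28 CPM of KO batch 2, and 1 cell held 59 of the 228 UMIs.

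Enzymes of metabolism were PAOX and NMNAT3, besides CTSF, ST8SIA1 and ATP6V1E2. PAOX, the peroxisomal oxidase that breaks down acetylated polyamines, had 173 and 308 UMIs in WT and 24 and 17 in KO. NMNAT3, which makes NAD in mitochondria, had 162 and 302 in WT and 9 and 69 in KO. Protein turnover was represented by TRIM21, a ubiquitin ligase and cytosolic antibody receptor, and USP2, a deubiquitinating enzyme. TRIM21 repeated the uneven KO values of SYTL4, with 145 and 227 UMIs in WT and 1 and 47 in KO. USP2 had 218 and 118 in WT and 14 and 14 in KO, and 1 cell held 41 of the 218. PLK5, a polo-like kinase family member, had 103 and 79 UMIs in WT and 7 and 5 in KO.

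**Figure D2:**
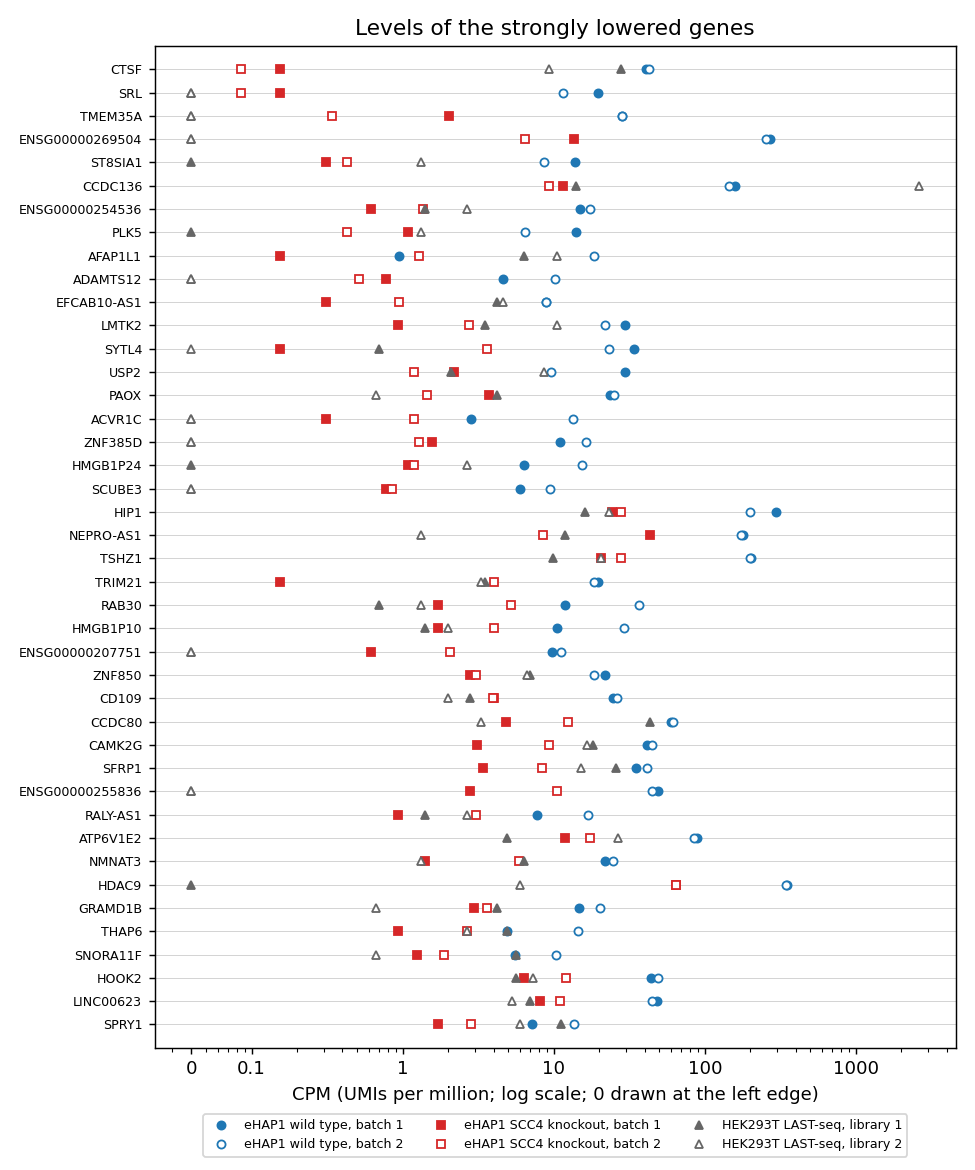
CPM (log x axis, 0 at the left edge) of each of the 42 genes, ordered by summed log2 ratio, in the 2 WT batches (blue circles), the 2 KO batches (red squares) and 2 HEK293T LAST-seq libraries (grey triangles). WT circles lie right of KO squares in every row except AFAP1L1, where they interleave, and the HEK293T triangles are left of or among the KO squares in many rows.

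The 42 genes varied between batches of the same genotype. Between WT batches, 10 of the 42 differed beyond 2-fold, against 4.23% of all genes, and 8 of these 10 were higher in batch 2. Over all genes, 176 were beyond 2-fold higher in WT batch 2 and 237 lower. Between KO batches, 22 of the 42 differed beyond 2-fold, against 4.48% of all genes, and 17 of these were higher in batch 2. Most genes beyond 2-fold between the KO batches had this direction, with 302 higher in batch 2 and 136 lower. The KO sums of the 42 genes are small by selection, with a median of 0.284 UMI per cell, so their ratios between batches rest on fewer molecules than those of most genes.

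The share of cells with a UMI is shown next because it is not altered by a mapping that keeps 0 at 0. Over the 42 genes the median share was 80.1% and 96.0% in the WT batches and 11.7% and 34.2% in the KO batches. Over all genes the medians were 87.7% and 93.3% in WT and 83.1% and 97.4% in KO. In both batches the share was lower in KO for 39 of the 42 genes, against 14.5% of all genes, a direction that follows from the selection. The 3 exceptions were high in both genotypes: NEPRO-AS1 was detected in all 77 KO cells of batch 1 and all 73 WT cells, HDAC9 in all cells of batch 2 in both genotypes, and HIP1 in all 76 KO cells and 73 of 75 WT cells of batch 2.

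Some genes had little left in any KO cell, and others were spread thinly over many. CTSF was detected in 71 of 73 and 74 of 75 WT cells but in 1 of 77 and 1 of 76 KO cells, and SRL in 64 and 47 WT cells but also in 1 KO cell per batch. AFAP1L1 was detected in 7 of 73 WT cells in batch 1 and in 75 of 75 in batch 2, and RAB30 in 29 and 75. SYTL4 was detected in 1 of 77 KO cells in batch 1 and in 36 of 76 in batch 2, and TRIM21 in 1 and 45. The uneven batches of these 4 genes were therefore present in the number of positive cells as well as in the sums. When each cell was thinned to 40000 UMIs, which left out 1 WT cell and 0 KO cells, the median share was 51.4% in WT and 8.17% in KO, against 62.6% and 62.7% over all genes.

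**Figure D3:**
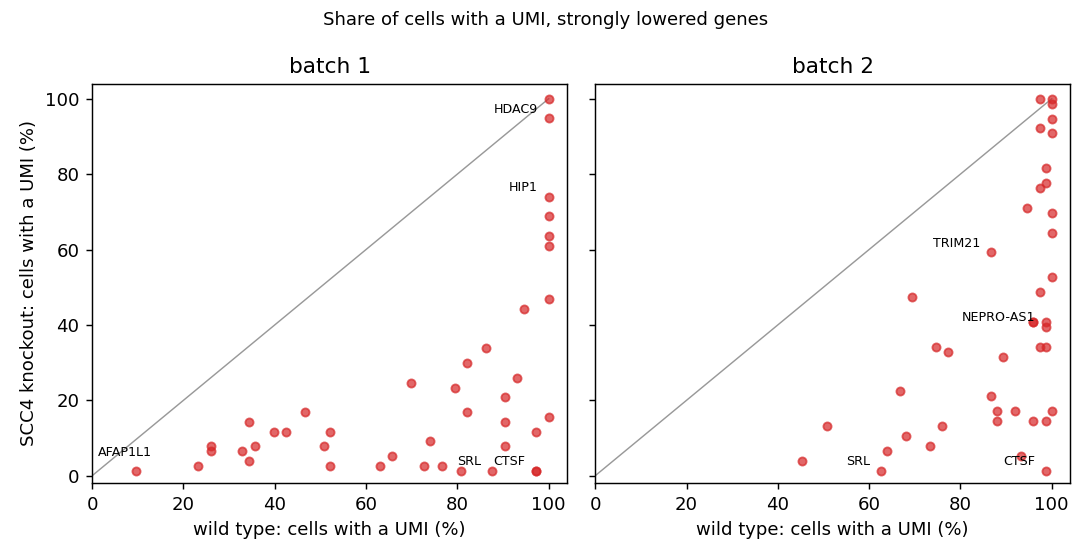
Percent of cells with at least 1 UMI for each of the 42 genes in WT (x axis) and SCC4 KO (y axis), in batch 1 (left) and batch 2 (right), with the line of equal shares in grey. All points lie on or below the line except HIP1 in batch 2, and the points of batch 2 reach higher KO shares than those of batch 1.

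Summed over the 42 genes, every KO cell was below every WT cell. The 42 genes together took 1695 to 7369 CPM of each WT cell and 114 to 480 of each KO cell, a separation that the choice of genes favours. The 6 genes of highest WT mean made up 61.2% of the WT sum. The other 36 genes took 559 to 1268 CPM of each WT cell and 12.4 to 253 of each KO cell, which does not show that each gene was lower in each cell. The medians were 2109 and 2180 in the WT batches and 245 and 285 in the KO batches. The cell at 7369 was the one that held 786 UMIs of HIP1, and the next highest WT cell was at 3262. Of the 42 genes, a WT cell had a median of 29 and 37 detected in batches 1 and 2, and a KO cell 9 and 18.

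**Figure D4:**
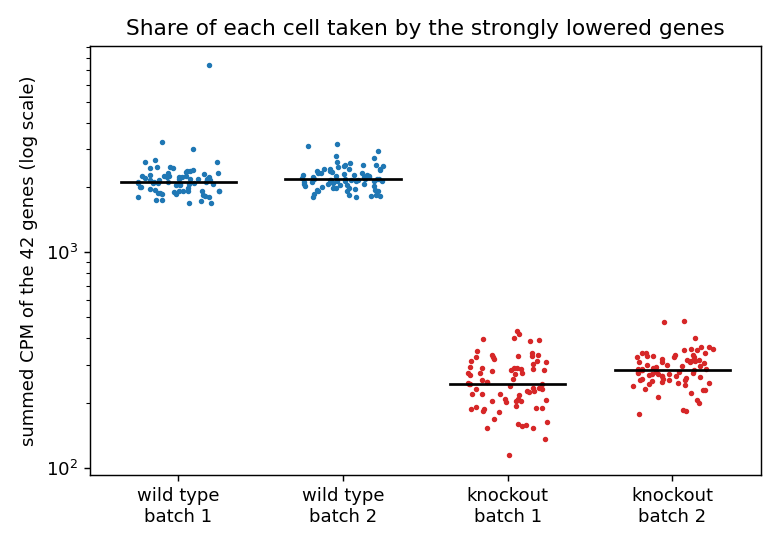
Summed CPM of the 42 genes in each cell (log y axis), by genotype and batch, with 1 point per cell and the median as a black line. WT cells lie between 1695 and 7369 and KO cells between 114 and 480, and 1 WT cell of batch 1 stands apart at 7369.

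By gene type, 32 of the 42 were protein-coding (76.2%, 95% exact interval 60.5 to 87.9), 6 were long noncoding RNAs (14.3%), 3 were pseudogenes and 1 was a small nucleolar RNA. Among all genes that passed the filter, 87.0% were protein-coding, 3.52% long noncoding RNAs and 8.60% pseudogenes. The noncoding members other than those above were LINC00623, ENSG00000207751, EFCAB10-AS1, RALY-AS1 and SNORA11F, with summed log2 ratios of -2.21, -2.76, -3.59, -2.52 and -2.36. HMGB1P10 and HMGB1P24 are copies of HMGB1, an abundant chromatin protein gene, and had summed ratios of -2.78 and -3.33 while HMGB1 itself had -0.54. Reads of such copies can come from the parent gene, so their values are uncertain.

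Genes that share a locus with a member were compared where both passed the filter, since the strand setting of the counting is not given in the sources used here. NEPRO and RALY, on the strand opposite NEPRO-AS1 and RALY-AS1, had batch ratios of -0.14 and -0.23 for NEPRO and 0.59 and 0.59 for RALY. JUNB, PRDX2 and RNASEH2A, which overlap HOOK2, had batch ratios of 0.40 and 0.52, 1.10 and 1.11, and -0.44 and -0.49. MAST1, which also overlaps HOOK2, had 0.30 and -0.89. Unlike HOOK2, NEPRO-AS1 and RALY-AS1, none of these overlapping genes was below -1 in either batch, although MAST1 was lower in batch 2. USP2-AS1, opposite USP2, had -2.70 and -1.06 and was low in both batches. ENSG00000254536 is annotated as a readthrough gene that overlaps PAOX and MTG1. It had -4.42 and -3.63, near PAOX at -2.63 and -4.06 and unlike MTG1 at -0.25 and -0.46, and reads of the shared exons cannot be assigned to one of them.

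Along the genome, 8 of the 42 genes had another within 1 Mb of their start, against 4.63% of all genes with such a neighbour among the 42. The count rests on 4 pairs, and one of them, PAOX with ENSG00000254536, is a single locus. SYTL4 and TMEM35A lie 347 kb apart on chromosome X with CSTF2 and TRMT2B between them, at summed log2 ratios of -0.91 and 1.27. CCDC80 and NEPRO-AS1 lie 370 kb apart on chromosome 3 with GTPBP8 between them at 0.09. CAMK2G and SNORA11F lie 748 kb apart on chromosome 10, with 9 genes between them whose median was -0.13. One of the 9, FUT11, was low in both batches, at -1.54 and -1.12.

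Most genes on either side of a member were not lower. Of 387 such neighbours that are not members, 22 (5.68%) were below -1 in both batches, against 3.54% of all genes, and their median log2 ratio was 0.08 against 0.03. Of the 82 next neighbours, 5 were below -1 in both batches. The members lay on 18 chromosomes, with 5 each on chromosomes 7 and 11 and 4 each on chromosomes 3, 10 and 19. These were 0.673% to 1.08% of the genes that passed on each of the 5 chromosomes, against 0.43% over all, and no test of this was made. Their median span from first to last annotated base was 52.3 kb, against 29.3 kb over all genes, and HDAC9 and ZNF385D spanned 915 and 961 kb.

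**Figure D5:**
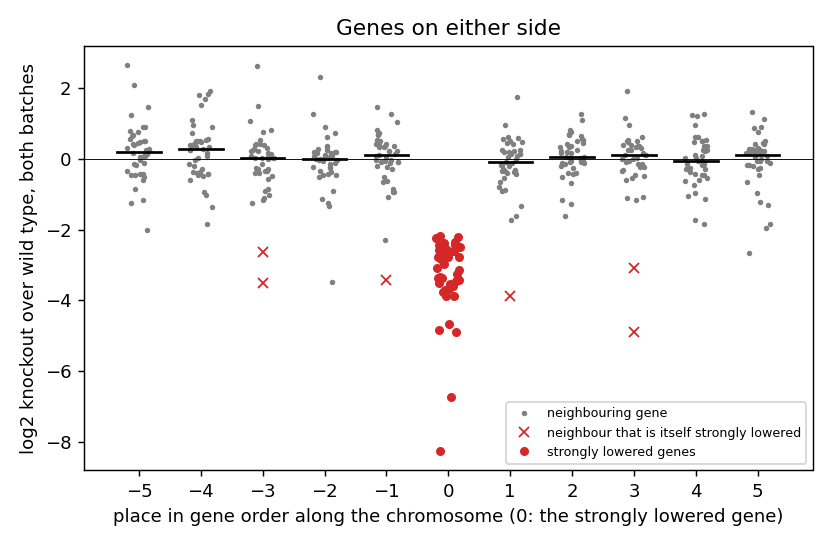
Summed log2 ratio of KO over WT (y axis) for the 42 genes (red, at 0) and for the 5 genes on either side in gene order (grey; red crosses where the neighbour is itself one of the 42), with the median of each place as a black line. The medians of all 10 places lie near 0.

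Promoters are shown for the 2 members of lowest ratio and the 2 of highest WT mean among those with a RefSeq promoter sequence, to let their base composition be compared. Each runs from 250 bases before to 50 after the RefSeq start (GRCh38.p14), 5' to 3' on the gene's strand, with CG dinucleotides in capitals. The positions are chr11:66568557-66568856 for CTSF and chr12:22334658-22334957 for ST8SIA1 (both minus strand), chr7:18495499-18495798 for HDAC9 (plus) and chr7:75738892-75739191 for HIP1 (minus). The RefSeq starts of HDAC9 and ST8SIA1 lie far inside the annotated gene and not at its 5' end.
CTSF: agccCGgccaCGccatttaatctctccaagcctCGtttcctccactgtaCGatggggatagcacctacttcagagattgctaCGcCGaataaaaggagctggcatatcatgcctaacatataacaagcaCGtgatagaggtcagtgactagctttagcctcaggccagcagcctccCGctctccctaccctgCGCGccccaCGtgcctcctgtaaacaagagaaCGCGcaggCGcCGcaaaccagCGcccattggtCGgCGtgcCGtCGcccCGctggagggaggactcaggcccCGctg
ST8SIA1: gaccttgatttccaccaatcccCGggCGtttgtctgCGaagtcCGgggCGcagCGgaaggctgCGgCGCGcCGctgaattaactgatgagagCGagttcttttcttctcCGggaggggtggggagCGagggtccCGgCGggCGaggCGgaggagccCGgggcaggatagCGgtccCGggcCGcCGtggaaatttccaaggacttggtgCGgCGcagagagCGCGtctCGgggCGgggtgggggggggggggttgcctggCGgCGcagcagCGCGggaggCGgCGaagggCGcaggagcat
HDAC9: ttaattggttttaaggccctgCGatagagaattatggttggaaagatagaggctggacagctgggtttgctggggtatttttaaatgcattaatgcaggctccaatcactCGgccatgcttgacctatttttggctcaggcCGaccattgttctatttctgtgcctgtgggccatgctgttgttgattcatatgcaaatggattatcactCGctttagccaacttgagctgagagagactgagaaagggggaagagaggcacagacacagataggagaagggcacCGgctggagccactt
HIP1: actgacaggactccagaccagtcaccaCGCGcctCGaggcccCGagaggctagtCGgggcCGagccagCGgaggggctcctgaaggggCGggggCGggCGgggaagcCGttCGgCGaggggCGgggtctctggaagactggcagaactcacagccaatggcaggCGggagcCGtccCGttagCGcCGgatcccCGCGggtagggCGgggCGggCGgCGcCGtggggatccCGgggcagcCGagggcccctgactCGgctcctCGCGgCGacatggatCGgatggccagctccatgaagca

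These promoters differed in CG content. CTSF, ST8SIA1 and HIP1 had 22, 35 and 33 CG dinucleotides and observed-over-expected CG ratios of 0.85, 1.03 and 0.84, whereas HDAC9 had 5 and a ratio of 0.31. A promoter sequence was matched for 25 of the 42 genes. Of these, 19 (76.0%) had a CG ratio of at least 0.6, against 88.5% of the genes that passed the filter and 49.0% of all promoters. The letters CCCTC, a core of the CTCF motif, occurred on either strand in 18 of the 25 (72.0%), against 80.1% of the genes that passed and 70.3% of all promoters of that length. The letters TATAAA occurred in 1 of the 25, against 4.84% of the genes that passed.

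In HEK293T cells most of the 42 genes were low. In the 2 LAST-seq libraries of 10 cells each, 29 and 32 of the 42 had a UMI (69.0% and 76.2%), against 96.7% and 97.2% of all genes, and their median levels were 3.51 and 2.65 CPM against 26.7 and 28.5. In the 2 CEL-seq2 libraries 38 and 40 had a UMI (90.5% and 95.2%), against 97.8% and 98.0% of all genes. The gap in detection was thus much smaller with CEL-seq2. The mean HEK293T level in LAST-seq lay below the summed KO level for 23 genes, between KO and WT for 18 and above WT for 1. No share over all genes is given beside these counts, and the selection itself set KO far below WT. This placing depends on the method. HOOK2, below its summed KO level of 9.99 CPM in LAST-seq, was above it in both CEL-seq2 libraries, at 27.0 and 15.8. HDAC9 stayed below its summed KO level of 64.5 CPM, with 9.65 and 0.687 in CEL-seq2. TMEM35A had no UMI in any of the 4 HEK293T UMI libraries, where 3 UMIs would be 1.93 to 2.11 CPM, the limit that a count of 0 allows. In LAST-seq, HDAC9 had 0 and 5.96 CPM, far under its 64.2 in KO. TSHZ1 had 9.83 and 20.5 and HIP1 16.1 and 23.2, near or under their KO levels. For CTSF, the 28.1 and 9.27 CPM in HEK293T were above both KO values and below both WT values.

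Levels in HEK293T depended on the method for some genes. In the 2 CEL-seq2 libraries the medians of the 42 were 9.01 and 11.7 CPM, against 37.3 and 31.6 over all genes. In SMART-seq, 18 of the 42 had a row (42.9%), against 82.0% of all genes. There THAP6 and HMGB1P10 had 72.1 and 193 CPM of reads. HMGB1P24 had 374 and 355 CPM in CEL-seq2 and 0 and 2.65 in LAST-seq. The 2 LAST-seq libraries carried different mixes of added control RNA (spike-ins), so library and spike-in mix cannot be told apart. Of 20 members with at least 10 UMIs over both libraries, 9 differed beyond 2-fold between the libraries. The share over all genes is not given. Among the 9, CCDC80 had 62 and 5 UMIs and NEPRO-AS1 17 and 2, so their mean levels are uncertain. CCDC136, also among the 9, had 20 UMIs in one library and 3958 in the other, where each of the 10 cells held 307 to 526. Those 3958 UMIs came from 4502 reads, or 1.14 reads per UMI, the lowest of the 181 genes with at least 1000 UMIs in that library, whose median was 4.42. CEL-seq2 gave CCDC136 29 and 22 UMIs. The placing of CCDC136 above its WT level thus rests on 1 library, and without it the HEK293T level of 14.0 CPM lay between KO and WT.

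Of the 42 genes, 6 were in the gene lists examined and 36 were in none. Of the 30 lists, which were assembled with earlier results of these data known, 5 held a member. The zinc finger list held 2 of the 42 among 195 genes that passed, ZNF850 and ZNF385D. The extracellular matrix list (25 genes) held ADAMTS12, the WNT list (18) SFRP1, the TGF-beta and BMP list (27) ACVR1C, and the receptor tyrosine kinase list (18) SPRY1. The median log2 ratios of these lists were 0.13, -0.21, 0.13, 0.09 and -0.19, against 0.03 over all genes. Within these 5 lists, ZNF697 (zinc finger) and BMP7 and INHBB (TGF-beta and BMP) were above 2 in both batches. The cohesin list (13 genes) held no member, and within it only MAU2 was below -1 in both batches. The HOX list (13), the developmental transcription factor list (75), the imprinted gene list (15) and the neuronal and synaptic list (12) held none either, and no clustered protocadherin passed the filter. Over all 9773 genes that passed, 0.43% were among the 42. At that share a list of any of these sizes would hold few or none, so these counts set no list apart.

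A further set of genes was left out by the requirement of 1 UMI in each genotype. In 12 genes the WT mean reached 1 UMI per cell while the KO table had no row, and 10 of them would be below -2 in both batches if the missing row is read as 0. The most abundant was ENSG00000256399, a processed pseudogene on chromosome 12, with 3984 and 6827 UMIs in WT and a UMI in 100% of WT cells. NELL1, a secreted protein of bone formation, had 102 and 138 UMIs in WT, and KLRF1, a receptor of natural killer cells, 163 and 85. These genes were picked after their values were seen, and since a missing row is not a measured 0, no fold is given for them.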

How the data were processed

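The processed tables were taken as the authors deposited them. For HEK293T single cells they held whole-number counts of UMIs per gene and well (LAST-seq and CEL-seq2) or of reads (SMART-seq, and LAST-seq for CCDC136). Per the study's methods, reads were demultiplexed (bcl2fastq 2.20 in the submitters' notes), mapped to GRCh38 and counted with zUMIs, and empty or poorly mapping wells were removed. The deposited eHAP1 values, planned for as counts, were handled as a score on the UMI scale, since they carry the gap that ComBat-seq leaves, and the sums therefore inherit that adjustment. The prefix of each cell name gave the batch. Sums per batch and genotype were compared as described, with Python 3.11.15, pandas 2.3.3 and scipy 1.17.1. The rule was also run on simulated data. No outcome of that run is given here, so nothing about the selected genes is concluded from it. No test was made, because there was 1 sample per genotype and the contrast chose the genes.

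The 42 genes and all lists were chosen with earlier results of these data known. Genes named in the text were those in a list, the 10 of highest WT mean, the 6 of lowest summed ratio, those within 1 Mb of another, the 3 on either side of the threshold, MAU2 and NIPBL, and others grouped by function after their values were seen. Gene types and positions were taken from GENCODE release 44 and promoters from RefSeq, both on GRCh38, and 9756 of the 9773 identifiers matched. Alternatives used edgeR 4.0.16 (TMM factors), DESeq2 1.42.0 (size factors) and sva 3.50.0 (ComBat-seq). The files of lysate and 15-pg RNA were not used here.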

Additional observations from a re-analysis of the deposited data

How the results depend on the processing

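The number of strongly lowered genes was 42, and it stayed within 1.5 times of that with TMM factors or DESeq2 size factors (48 each), equal weight per cell (37), 1 or 0.1 UMI added (40 and 42), a further ComBat-seq run (40), no minimum of 1 UMI in each genotype (52) and removal of the deepest and shallowest 10% of cells (41). All 42 were among the genes found with TMM factors, with DESeq2 size factors and with 0.1 UMI added. Of the 42, 38 were found again after the further ComBat-seq run, 37 with equal weight per cell, 40 with 1 UMI added, 36 without the deepest and shallowest cells and 13 in thinned cells. HOOK2 and SPRY1 were each lost in equal weighting, thinning and removal of cells, and AFAP1L1 in equal weighting, thinning and with 1 UMI added. It moved to 115 and 22 with thresholds of -1.5 and -2.5, to 100 with no minimum mean, to 27 with a minimum mean of 2 UMIs, and to 14 with cells thinned to 40000 UMIs, where only 5620 genes and 16 of the 42 passed the filter. Asking for 1 batch only gave 88 to 177 genes. The median log2 ratio of the 42 ranged from -3.12 to -2.82 over its alternatives, batches included, and TMM and DESeq2 factors moved the median of all genes by -0.07.

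The median share of cells with a UMI in WT was 79.7%, and it was 51.4% in thinned cells, 56.1% with at least 2 UMIs asked for and 80.1% to 96.0% with 1 batch left out. In KO it was 23.5%, and 3.92% with at least 2 UMIs and 11.7% to 34.2% with 1 batch left out. The 8 genes within 1 Mb of another became 2 within 100 kb and 2 when next to each other in gene order. The median HEK293T level was 3.06 CPM in LAST-seq, 10.0 in CEL-seq2 and 0 in SMART-seq reads, where missing rows were read as 0, and 2.65 to 3.51 with 1 library left out. The cause of these changes was not tested. Of 294 values of single genes under these alternatives, 262 moved by less than the SD of the 2 batches and 32 by more. The alternatives include each batch alone, which also sets the SD, and TMM and DESeq2 factors shift all genes alike. The tally is therefore partly fixed in advance and does not measure robustness. The SD is wide for genes with uneven batches such as SYTL4 and TRIM21, and the sign is fixed by the selection. Leaving out 1 cell, an alternative chosen after seeing the data, moved the summed log2 ratio of HIP1 from -3.13 to -2.88. The ratios were taken within batches. They were thus matched by batch, and no paired test was made because no result comes from a test.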
